A study of Mus musculus with 8 samples.

Results

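The genes described here are 9 that make reactive oxygen species, remove them or produce itaconate in macrophages. They are Cybb, Cyba, Ncf1 and Ncf4 of the phagocyte NADPH oxidase, the itaconate enzyme Acod1, and the antioxidant genes Sod2, Nqo1, Gclm and Txnrd1. They were chosen by name, and each was read from every probe set that the array annotation gives to its symbol alone, 19 probe sets in all. They are 9 of the 18193 genes with such a probe set, and all 9 were among the 12540 genes bright enough to be tested. Values given for a gene are those of its brightest probe set by mean, and other probe sets are named where they are used.

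The phagocyte NADPH oxidase moves electrons from NADPH across a membrane to oxygen and so makes superoxide. CYBB and CYBA form its membrane cytochrome, and cytosolic subunits, NCF1 and NCF4 among them, join it when the cell is activated. ACOD1 turns cis-aconitate, taken from the tricarboxylic acid (TCA) cycle, into itaconate, which inhibits succinate dehydrogenase and can modify KEAP1. KEAP1 holds back the transcription factor NRF2, the product of Nfe2l2, and Nqo1, Gclm and Txnrd1 are known NRF2 targets. The product of Zc3h12a, Regnase-1, cleaves and so destroys mRNAs of inflammatory proteins.

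RNA was measured on 8 Affymetrix arrays, 1 for each of 2 genotypes at 4 times. The KO groups were peritoneal macrophages from mice labelled Zc3h12a-/-, at 0, 1, 2 and 4 h of lipopolysaccharide (LPS), and the WT groups were macrophages from wild-type mice at those times. All mice had received thioglycollate, which inflames the peritoneal cavity and brings in macrophages. LPS, the bacterial product sensed by TLR4, was given at 100 ng/ml, and the 0 h cells were left without it. The labels give no age, and do not say how many mice went into a sample, how the allele was made, or whether samples came from separate cultures. No group had a replicate, so the 4 times stood in for replicates in the genotype comparison and the 2 genotypes in the LPS comparisons. The p-values measure the spread between these arrays, which may be technical. That spread also holds any change of the genotype difference with time, and the 2 cannot be told apart.

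Array-wide values set the frame. Pairwise array correlations lay between 0.933 and 0.988, and background, taken from bacterial control probe sets, lay between 2.96 and 3.26 log2 units. The 8 measured macrophage markers were above background in every group, with a summed linear level of 33179 to 38149 on KO arrays and 33308 to 37066 on WT arrays. Among these 8, Adgre1 (0.71) and Itgam (0.90) passed as higher and Fcgr1 (-0.87) as lower in KO. For this and the marker counts that follow, the share over all 12540 genes tested was 13.5%. Of the resident peritoneal macrophage markers, 10 of 10 passed the test as higher in KO, with sums of 12191 to 13614 on KO arrays and 2888 to 3750 on WT arrays. Of the mesothelial and stromal markers, 6 of 7 tested passed as lower in KO, with sums of 443 to 666 against 1369 to 1836, and Msln and Krt19 stayed at background. Of the B cell markers, Ighm alone passed, with 8.72 to 9.45 on KO arrays and 5.29 to 5.58 on WT arrays, while Ms4a1 (0.18) and Cd79a (-0.33) were tested and did not pass and Pax5 stayed at background. The mast cell markers Cpa3 (-1.44) and Cma1 (-1.05) passed as lower in KO, 2 of 4 tested. Kit (0.19) and Tpsb2 (-0.39) were tested and did not pass, and Mcpt4 stayed at background. Of the T and NK cell markers 1 of 2 tested passed, Cd3e (0.89), as higher in KO. Cd4 (0.02) did not pass, and Cd3g and Cd8a stayed at background. The 3'-to-5' difference of Actb, a measure of RNA integrity, was 3.11, 2.61, 2.52 and 2.30 on KO arrays at 0, 1, 2 and 4 h, against 2.64, 2.35, 2.43 and 2.16 on WT arrays, so it was higher on the KO array at each time. That of Gapdh was 3.31, 2.95, 3.04 and 2.90 on KO arrays, against 3.01, 2.99, 3.16 and 2.98 on WT arrays, higher on the KO array at 0 h and lower at the later times. The part of these markers and of RNA integrity in the genotype differences below was not tested. In bulk RNA, fewer cells of a type and less RNA per cell cannot be told apart. Zc3h12a probe set 1427348_at read 6.73, 7.70, 8.75 and 8.50 on KO arrays and 6.12, 8.02, 8.87 and 8.57 on WT arrays. Where it lies relative to the deleted part is not stated in the labels or annotation, so it checks no label, and KO and WT stand for the labels as given.

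Promoter sequence is shown for Acod1, Sod2 and Txnrd1, which rose with LPS, and for Gclm and Nqo1, which differed with genotype and LPS. RefSeq promoters of GRCm38.p6 were matched by symbol for 8 of the 9 members, all but Ncf4, with 10 promoters. The 250 bases before each start were searched on both strands for 5 motifs: the antioxidant response element core bound by NRF2 (TGACNNNGC), the AP-1 core (TGANTCA), the ETS core of PU.1 (GAGGAAG), the interferon response element core (GAAANNGAA) and the kappaB consensus. The antioxidant and AP-1 cores can share bases. Capitals mark the antioxidant core in Gclm, Nqo1 and Txnrd1 and the kappaB consensus or the interferon core in Acod1 and Sod2. A run with no capitals holds no match. Each run is printed on the gene's strand and stops before the annotated gene, except the short Txnrd1 site, which lies before the second of its listed starts.
Gclm, chr3:122245307-122245486, plus strand: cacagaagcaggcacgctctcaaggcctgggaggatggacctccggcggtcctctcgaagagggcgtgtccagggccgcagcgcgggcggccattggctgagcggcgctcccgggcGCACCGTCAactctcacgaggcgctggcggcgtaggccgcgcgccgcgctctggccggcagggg
Nqo1, chr8:107403206-107403455, minus strand: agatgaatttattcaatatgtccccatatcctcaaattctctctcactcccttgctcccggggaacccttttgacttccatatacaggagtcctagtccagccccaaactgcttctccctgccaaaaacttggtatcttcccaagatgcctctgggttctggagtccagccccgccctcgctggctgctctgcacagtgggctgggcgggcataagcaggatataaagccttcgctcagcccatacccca
Txnrd1, chr10:82859104-82859133, plus strand: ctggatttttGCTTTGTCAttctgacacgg
Acod1, chr14:103046762-103047011, plus strand: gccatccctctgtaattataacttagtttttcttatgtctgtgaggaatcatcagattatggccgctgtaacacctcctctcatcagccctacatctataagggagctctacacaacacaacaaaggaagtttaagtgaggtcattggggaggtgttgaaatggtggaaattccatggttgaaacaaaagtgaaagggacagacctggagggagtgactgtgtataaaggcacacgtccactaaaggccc
Sod2, chr17:13007589-13007838, plus strand: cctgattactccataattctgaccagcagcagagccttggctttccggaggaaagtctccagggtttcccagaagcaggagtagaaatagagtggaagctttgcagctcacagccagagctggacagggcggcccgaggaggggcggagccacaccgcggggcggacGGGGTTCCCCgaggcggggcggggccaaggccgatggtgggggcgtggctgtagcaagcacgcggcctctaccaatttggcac

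The antioxidant core was matched once in Gclm, 134 bases before the start, and once before the second Txnrd1 start, 92 bases away. Distances count to the listed promoter start. For Gclm that start lies inside the annotated gene, so the printed run of 180 bases ends short of it. The antioxidant core is found in 10.2% of the 32851 promoters searched. The kappaB consensus was matched once in Sod2, 83 bases before the start, and is found in 7.25% of promoters. Among the oxidase genes, Cybb held 3 interferon cores and 1 AP-1 core, and Ncf1 held 1 interferon core. Those cores are found in 7.13% and 6.75% of promoters. The ETS core, found in 10.6% of promoters, was matched among the members only before the first Txnrd1 start. Acod1, Nqo1 and Cyba held none of the 5 motifs in these windows. A match is a description of letters, and no match says only that the letters are not in this window.

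Genotype and LPS called overlapping sets of members, with Nqo1 and Gclm in both. Between genotypes, 3 of the 9 members passed the threshold of an adjusted p under 0.05, with Nqo1 and Gclm higher and Ncf4 lower in KO, where 13.5% of all 12540 genes passed (limma, Benjamini-Hochberg over all genes). After LPS, Acod1, Sod2 and Txnrd1 rose at each time. They were the 3 members of 9 that passed at 1 h, where 10.5% of genes passed, and the 3 of 9 at 2 h, where 41.8% passed. At 4 h 6 of 9 passed, with Cybb also higher and Nqo1 and Gclm lower, where 43.8% of genes passed. The members' share at 2 h was below that of all genes. The members' median differences were 0.01 log2 units for genotype and 0.10, 0.25 and -0.14 for LPS at 1, 2 and 4 h, against medians over all genes of -0.04, -0.09, -0.16 and -0.12. Cyba and Ncf1, on their representative probe sets, passed in no comparison.

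**Figure D1:**
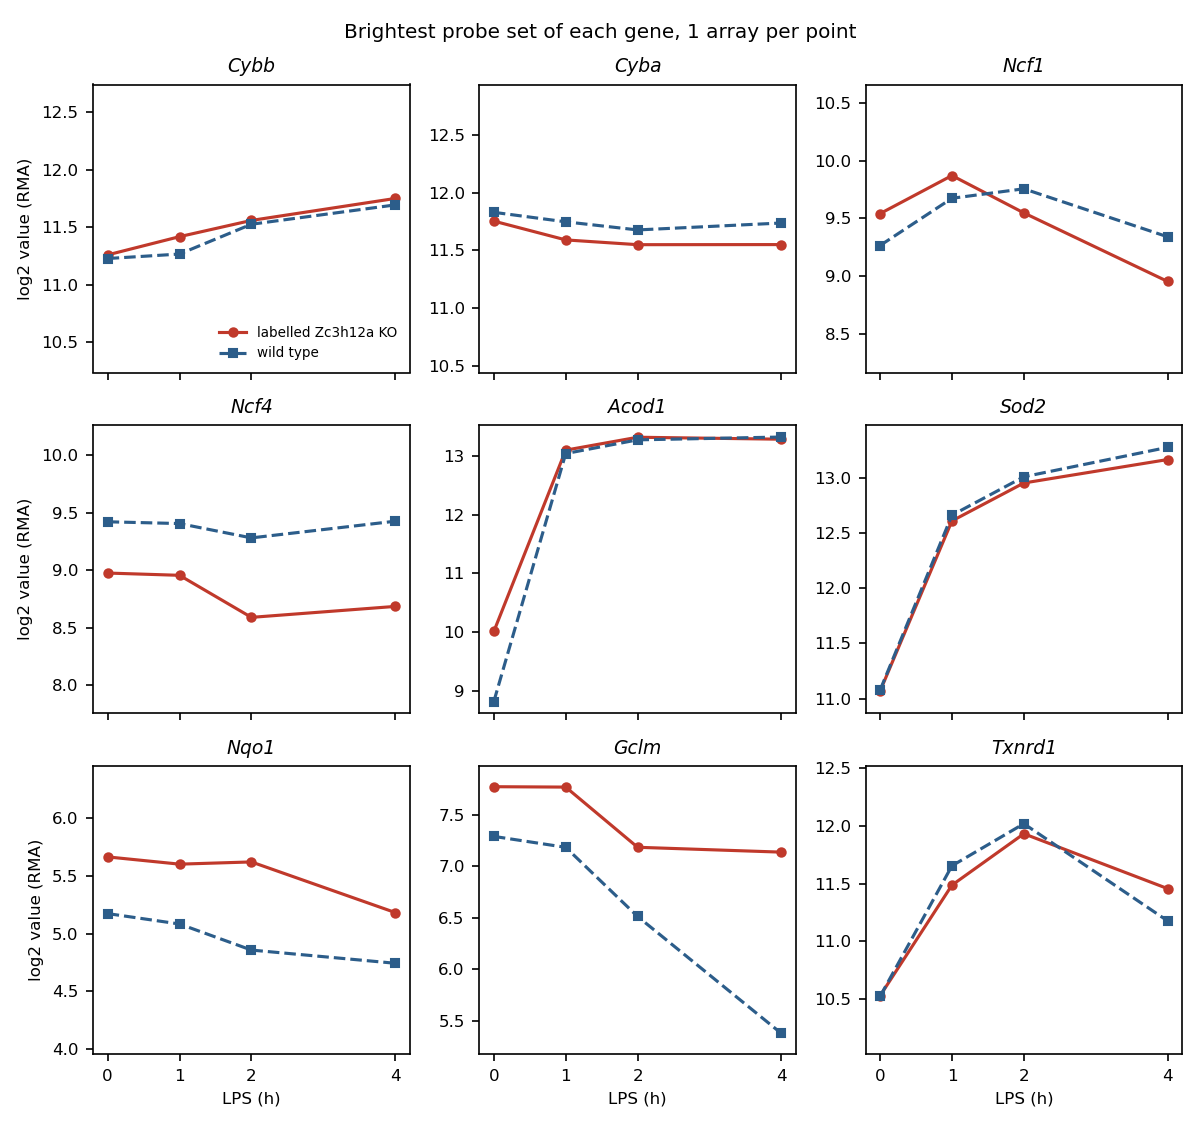
Log2 RMA value (vertical axis) of each member's brightest probe set against hours of LPS (horizontal axis), with KO as red circles and WT as blue squares. Each point is 1 array, and vertical scales differ between panels. Acod1 stands apart between genotypes at 0 h alone (10.01 on the KO array and 8.81 on the WT array), and the Gclm lines are farthest apart at 4 h (7.14 on the KO array and 5.38 on the WT array).

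Acod1, the enzyme that makes itaconate, had the largest LPS response of the members. Its probe set 1427381_at read 10.01, 13.10, 13.32 and 13.28 log2 units on the KO arrays at 0, 1, 2 and 4 h. On the WT arrays it read 8.81, 13.04, 13.27 and 13.32. All LPS arrays lay above both 0 h arrays, and at 1, 2 and 4 h the genotypes lay within 0.06 units of each other. The mean rise over both genotypes was 3.66 units at 1 h (SE 0.30, adjusted p = 0.00102), 3.88 at 2 h (SE 0.30, adjusted p = 0.000275) and 3.89 at 4 h (SE 0.30, adjusted p = 0.000157), by limma. These are 12.6-, 14.8- and 14.8-fold. Taken by genotype, the 4 h array was 9.69-fold above the 0 h array in KO and 22.7-fold in WT.

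The gap between these folds lay in the 0 h arrays. At 0 h the KO array was 1.19 log2 units above the WT array, or 2.29-fold, and Acod1 was the 1 member of 9 at least 2-fold apart at that time, as were 3.78% of all genes. This value rests on 1 array a group and has no test. The KO minus WT differences at 1, 2 and 4 h were 0.06, 0.04 and -0.04. The fit of a changed genotype difference after LPS gave -1.17 for Acod1 (SE 0.19, unadjusted p = 0.00129, limma adjusted p = 1.00). None of the 9 members and 0% of genes passed that test, in which 434 of 12540 genes had an unadjusted p under 0.05. With limma's trend and robust settings 15 genes passed, Acod1 among them at an adjusted p of 0.000148. On the LPS arrays Acod1 stood near the top of the scale: 64, 32 and 34 of 45101 probe sets were brighter on the KO arrays at 1, 2 and 4 h, and 78, 43 and 34 on the WT arrays. At 0 h 1662 were brighter on the KO array and 3165 on the WT array. Whether signal near the top of the scale narrowed the difference after LPS was not tested.

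Sod2, the mitochondrial superoxide dismutase that turns superoxide into hydrogen peroxide, rose in both genotypes. Probe set 1448610_a_at read 11.07, 12.61, 12.95 and 13.17 on KO arrays at 0, 1, 2 and 4 h, against 11.08, 12.66, 13.01 and 13.28 on WT arrays. Every LPS array was above both 0 h arrays, and the later the time, the higher the value in each genotype. The rise was 1.56 units at 1 h (SE 0.10, adjusted p = 0.000399), 1.91 at 2 h (SE 0.10, adjusted p = 8.4e-05) and 2.15 at 4 h (SE 0.10, adjusted p = 2.7e-05) in limma, a 4.44-fold rise at 4 h. KO and WT differed by -0.06 units over the 4 times (SE 0.07, limma adjusted p = 0.628), with the KO array lower at each time by 0.11 units or less. The other Sod2 probe sets differed in size: 1417193_at rose by 2.05, 2.55 and 2.98 units at 1, 2 and 4 h and 1454976_at by 1.95, 2.40 and 2.59. On 1454976_at the KO array was instead the higher at each time, and the mean difference of 0.18 did not pass (limma adjusted p = 0.287). The dim probe set 1417194_at rose by 1.10 units at 2 h and 1.69 at 4 h, and its 0.61 at 1 h did not pass (limma adjusted p = 0.0984).

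**Figure D2:**
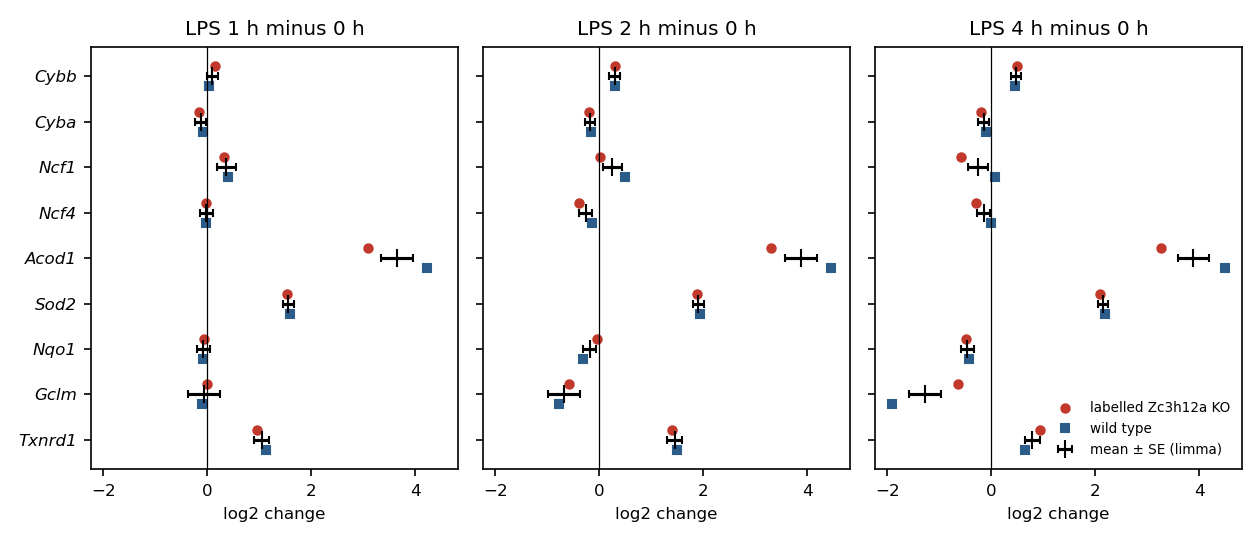
Log2 change from 0 h (horizontal axis) of each member at 1, 2 and 4 h of LPS, with KO as red circles, WT as blue squares and the limma mean of both genotypes with its SE as black crosses. Acod1, Sod2 and Txnrd1 lie to the right of 0 at all 3 times, as does Cybb by 0.49 or less. Gclm at 4 h lies at -0.63 in KO and -1.91 in WT.

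Of the oxidase genes, the membrane subunit Cybb rose with LPS at 4 h and the cytosolic subunit Ncf4 was lower in KO. Cybb, the catalytic gp91phox subunit, read 11.26, 11.42, 11.56 and 11.75 on KO arrays on its brightest probe set 1436779_at, against 11.23, 11.27, 11.53 and 11.69 on WT arrays. Its value was higher at each later time in both genotypes, which overlapped throughout. The change was 0.10 units at 1 h (SE 0.10, adjusted p = 0.612), 0.30 at 2 h (SE 0.10, adjusted p = 0.0610) and 0.48 at 4 h (SE 0.10, adjusted p = 0.0107) in limma. With trend and robust settings the 2 h change also passed (limma adjusted p = 0.00191). The 4 h call was lost without the KO 0 h array (adjusted p = 0.0731), the WT 0 h array (0.0564) or the WT 4 h array (0.0551), by limma. KO minus WT was 0.07 (SE 0.07, limma adjusted p = 0.563). On probe sets 1436778_at and 1422978_at it was -0.07 and -0.17, and neither passed (limma adjusted p = 0.592 and 0.348).

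The 3 Cybb probe sets gave changes of different size. The dimmest, 1422978_at, read 7.32, 8.66, 9.37 and 9.71 on KO arrays, against 7.79, 8.67, 9.35 and 9.93 on WT arrays. It rose by 1.11 units at 1 h (SE 0.15, limma adjusted p = 0.00729), 1.81 at 2 h and 2.26 at 4 h, when each probe set was fitted by itself. Probe set 1436778_at rose by 0.52 units at 2 h and 0.84 at 4 h, and its 0.30 at 1 h did not pass (limma adjusted p = 0.190). In the fits of each probe set by itself, 8 of the members' 19 probe sets passed at 1 h, 11 at 2 h and 13 at 4 h, where 8.46%, 35.8% and 38.8% of 22172 probe sets passed. For genotype 2 of 19 passed, those of Ncf4 and Nqo1, where 10% of probe sets passed.

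**Figure D3:**
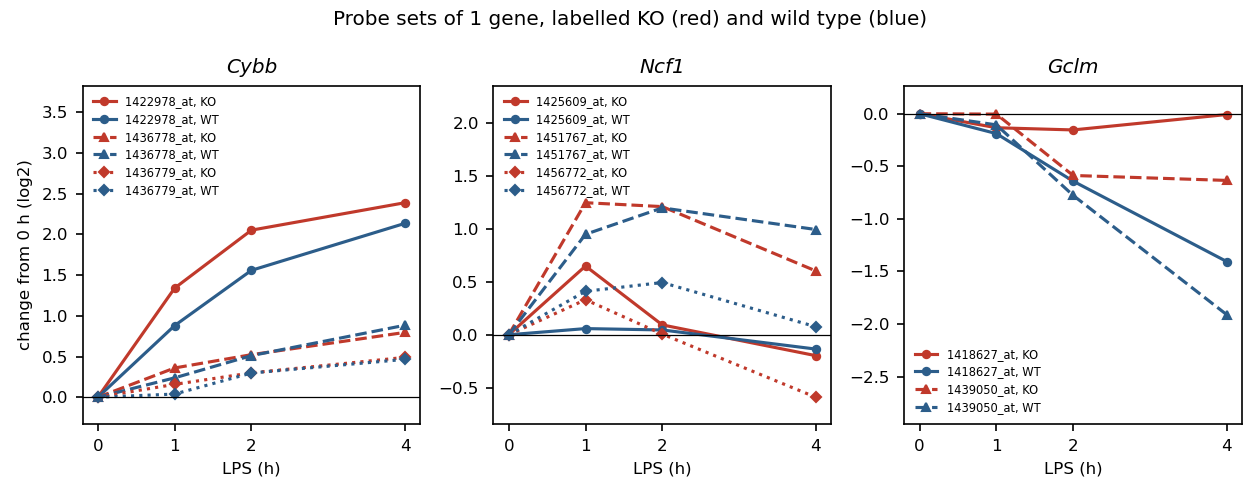
Log2 change from 0 h (vertical axis) against hours of LPS (horizontal axis) for each probe set of Cybb, Ncf1 and Gclm, with KO in red and WT in blue, 1 array per point. The probe sets of Cybb and of Ncf1 change by different amounts, and both Gclm probe sets end lower in WT (-1.41 and -1.91) than in KO (-0.01 and -0.63).

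Cyba, the p22phox partner that stabilises CYBB, stayed within a narrow range. It read 11.75, 11.59, 11.55 and 11.55 on KO arrays and 11.83, 11.75, 11.68 and 11.74 on WT arrays. The KO array was lower at each time, but the groups overlapped, and the difference of -0.14 units did not pass (SE 0.07, limma adjusted p = 0.250). LPS changes were -0.12, -0.18 and -0.15 at 1, 2 and 4 h. With limma's trend and robust settings the genotype difference passed (adjusted p = 0.0327), as did the 2 h (0.0210) and 4 h (0.0454) changes.

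Ncf1, the p47phox organiser that carries the cytosolic subunits to the membrane, depended on the probe set read. The brightest, 1456772_at, read 9.54, 9.87, 9.55 and 8.95 on KO arrays, against 9.26, 9.67, 9.76 and 9.34 on WT arrays. KO was the higher array at 0 and 1 h and the lower at 2 and 4 h, and the mean difference was -0.03 (SE 0.13, limma adjusted p = 0.895). Its LPS changes of 0.37, 0.25 and -0.26 units did not pass (limma adjusted p = 0.282, 0.315 and 0.312). Probe set 1451767_at read 7.25, 8.50, 8.46 and 7.85 on KO arrays, against 7.18, 8.12, 8.37 and 8.17 on WT arrays. Fitted by itself it rose by 1.10 units at 1 h (SE 0.17, adjusted p = 0.0122), 1.20 at 2 h (SE 0.17, adjusted p = 0.00255) and 0.80 at 4 h (SE 0.17, adjusted p = 0.0107), by limma. The third probe set, 1425609_at, read between 3.35 and 4.20 on KO arrays and between 3.91 and 4.11 on WT arrays, close to background, and passed in no comparison.

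Ncf4, the p40phox subunit that binds phosphatidylinositol 3-phosphate on phagosomes, was lower in KO at all 4 times. It read 8.98, 8.96, 8.59 and 8.69 on KO arrays, against 9.42, 9.40, 9.28 and 9.43 on WT arrays. The highest KO array was below the lowest WT array. The difference was -0.58 units (SE 0.09, limma adjusted p = 0.0116), which puts KO at 0.669 of the WT level. Of the 9 members, 2 had genotype groups that did not overlap, Ncf4 and Nqo1, and 7.21% of all genes did. The call was lost without either 2 h array (-0.54, limma adjusted p = 0.0539). Without time as a block it was also lost (limma adjusted p = 0.0986), as were those of Nqo1 (0.232) and Gclm (0.605), and no LPS time passed for Ncf4.

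Neutrophils also express the oxidase genes, and some of their markers moved with genotype. Of 9 neutrophil markers measured, Ltf, Elane and Cxcr2 were at background on all 8 arrays. Of 5 tested, 2 passed as higher in KO, where 13.5% of all genes passed. S100a8, the brightest, read 10.47 to 11.85 on KO arrays and 10.39 to 11.79 on WT arrays and did not pass. Camp (-0.12) and Ngp (0.78) were also tested and did not pass. S100a9 read 6.77 to 8.02 on KO arrays and 3.58 to 5.18 on WT arrays, and Mmp8 read 6.78 to 7.84 on KO arrays and 5.54 to 6.33 on WT arrays. The summed linear level of the list was 1805 to 4121 on KO arrays and 1480 to 3663 on WT arrays, ranges that overlapped. S100a8 rose with LPS in both genotypes and was higher on the KO array at each time. The KO and WT ranges of S100a9 and of Mmp8 did not overlap. The part of neutrophil RNA in the oxidase values was not tested.

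Among 11 tested genes that work with the oxidase, 2 passed as lower and 0 as higher in KO, where 13.5% of all genes passed. With housekeeping centring 5 passed as lower and 0 as higher. Prkcd, a kinase that phosphorylates NCF1, read 8.76, 8.73, 9.27 and 9.53 on KO arrays and 9.04, 9.09, 9.78 and 9.92 on WT arrays, a difference of -0.38 units (SE 0.08, limma adjusted p = 0.0278). Hvcn1, the proton channel that balances the oxidase's charge, differed by -0.47 (SE 0.10, limma adjusted p = 0.0331). Both calls were lost without either 0 h, 1 h or 2 h array, with a highest limma adjusted p of 0.110 for Prkcd and 0.116 for Hvcn1, and that of Prkcd also without either 4 h array (0.0808). Rac2, the GTPase that activates the complex in neutrophils and macrophages, differed by -0.32 and did not pass (SE 0.10, limma adjusted p = 0.0807). After LPS none of the 11 passed at 1 h, where 10.5% of all genes passed. At 2 h 1 passed as higher and 2 as lower, and at 4 h 2 as higher and 1 as lower, where 41.8% and 43.8% of all genes passed. Prkcd rose by 0.63 units at 2 h and 0.83 at 4 h, and Hvcn1 by 0.64 at 4 h. Cybc1, a chaperone of CYBB, fell by 1.84 units at 2 h, Vav1, an exchange factor for RAC, fell by 1.72 at 2 h, and Slc11a1, a phagosomal metal transporter, fell by 0.58 at 4 h. The probe sets of Prkcd and Vav1 can each match several transcripts, and on their other probe sets these calls were lost. Prkcd then differed by -0.27 units between genotypes (limma adjusted p = 0.0986) and by 0.33 and 0.11 at 2 and 4 h of LPS (0.0840 and 0.535), and Vav1 by -0.21 at 2 h (0.372). The 2 h call of Prkcd was also lost without the WT 0 h array (0.0511). The 4 h call of Hvcn1 was lost without the KO 0 h array (limma adjusted p = 0.0674), the KO 4 h array (0.0771) or the WT 0 h array (0.0748). The list's median genotype difference was -0.26, against -0.04 over all genes. Of 7 other NADPH oxidase genes, 3 had a probe set given to their symbol alone. Of these 3, 1 was bright enough to test, and it passed in no comparison.

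**Figure D4:**
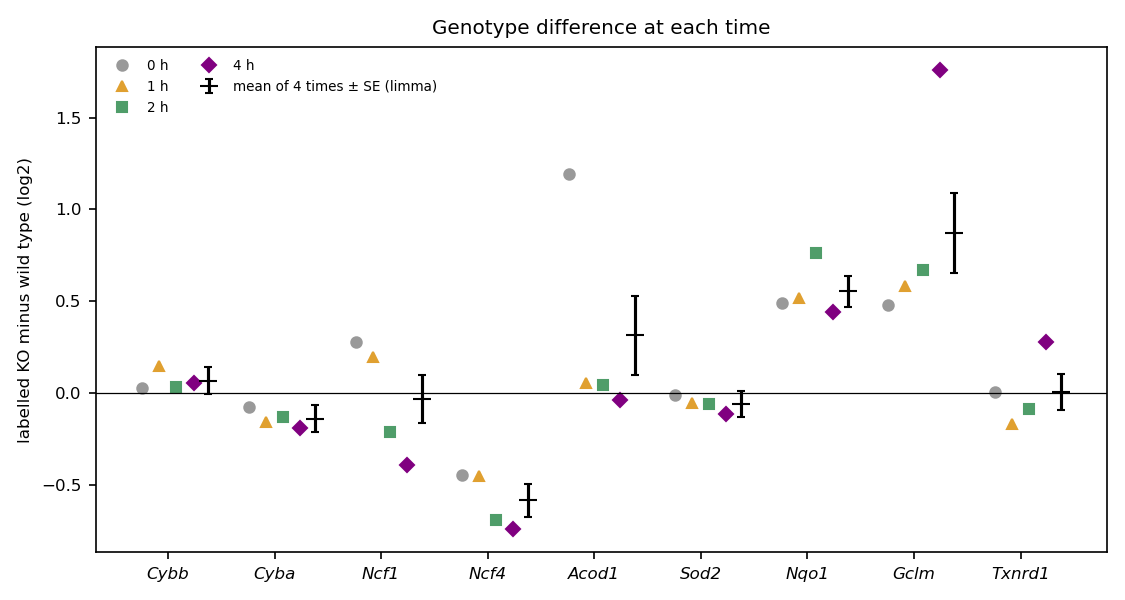
KO minus WT difference (vertical axis, log2) of each member's brightest probe set at 0, 1, 2 and 4 h of LPS. Each point is from 1 KO and 1 WT array, and the limma mean of the 4 times with its SE is in black. Nqo1 and Gclm lie above 0 and Ncf4 below 0 at all 4 times, and Gclm at 4 h lies at 1.76. Nearer to the line, Cybb is also above it and Cyba and Sod2 below it at all 4 times.

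On their brightest probe sets, the antioxidant genes Nqo1 and Gclm were higher in KO and, over both genotypes, lower at 4 h of LPS. Nqo1, the quinone reductase often used as a readout of NRF2, read 5.67, 5.60, 5.62 and 5.18 on KO arrays at 0, 1, 2 and 4 h. On WT arrays it read 5.17, 5.08, 4.86 and 4.74. Every KO array was above every WT array. The genotype difference was 0.55 units, or 1.47-fold (SE 0.09, limma adjusted p = 0.0124), and it was 0.49, 0.52, 0.77 and 0.44 at the 4 times. That call was lost without either 0 h array (0.57, limma adjusted p = 0.0560). The LPS change of Nqo1 at 4 h was -0.46 units (SE 0.12, limma adjusted p = 0.0242), and those of -0.08 and -0.18 at 1 and 2 h did not pass. The 4 h call was lost with cyclic loess scaling (-0.26, limma adjusted p = 0.178), with centring on housekeeping genes (-0.31, 0.0848), with trend and robust settings (0.0661), and without any 1 of the 0 h or 4 h arrays (highest limma adjusted p 0.138).

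Gclm, the modifier subunit of the enzyme that starts glutathione synthesis, showed its widest gap at 4 h. Probe set 1439050_at read 7.77, 7.77, 7.18 and 7.14 on KO arrays, against 7.29, 7.18, 6.51 and 5.38 on WT arrays. The KO array was higher at each time, and the groups overlapped, since the WT 0 h and 1 h arrays reached the level of the KO 2 h and 4 h arrays. The difference was 0.87 units, or 1.83-fold (SE 0.22, limma adjusted p = 0.0479). At 4 h alone it was 1.76 units or 3.38-fold. Gclm was the 1 member of 9 at least 2-fold apart at 4 h, as were 3.88% of all genes, while 0 of 9 were at 1 h and 2 h, where 3.37% and 4.81% of genes were. The LPS change at 4 h was -1.27 units over both genotypes (SE 0.31, limma adjusted p = 0.0162). It was -0.63 in KO and -1.91 in WT. The fit of a changed genotype difference after LPS gave 0.52 for Gclm (SE 0.50, limma adjusted p = 1.00). That fit takes 1, 2 and 4 h together, so a change at 4 h alone was not tested.

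The other Gclm probe set, 1418627_at, read 7.27, 7.14, 7.12 and 7.27 on KO arrays and 7.19, 7.00, 6.55 and 5.78 on WT arrays. Its KO values lay within 0.15 units of the 0 h array, while its WT value at 4 h was 1.41 units below 0 h. Its KO minus WT differences were 0.08, 0.14, 0.57 and 1.48. Fitted by itself, its mean difference of 0.57 did not pass (SE 0.23, limma adjusted p = 0.168). Nor did its LPS change at 4 h, -0.71 units over both genotypes (SE 0.33, limma adjusted p = 0.136). The genotype call on 1439050_at was near the threshold. It was lost when each probe set was fitted by itself (limma adjusted p = 0.0515), with no filter on dim genes (0.0525), with the mean of both probe sets (0.72, limma adjusted p = 0.0796), and without either 0 h array (1.00, limma adjusted p = 0.0969), either 1 h array (0.97, 0.0702) or either 2 h array (0.94, 0.115). Without either 4 h array the difference was 0.58 and passed (limma adjusted p = 0.0301). The 4 h LPS call was lost without the WT 0 h array (-1.01, limma adjusted p = 0.121), and the LPS change was -0.68 without the WT 4 h array and passed (0.0206).

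Txnrd1, the cytosolic thioredoxin reductase, rose with LPS and peaked at 2 h. It read 10.53, 11.49, 11.93 and 11.46 on KO arrays, against 10.52, 11.65, 12.02 and 11.18 on WT arrays. All LPS arrays were above both 0 h arrays, and the genotypes overlapped. The rise was 1.05 units at 1 h (SE 0.14, adjusted p = 0.00652), 1.45 at 2 h (SE 0.14, adjusted p = 0.000549) and 0.79 at 4 h (SE 0.14, adjusted p = 0.00435), by limma, or 2.07-, 2.74- and 1.73-fold. The 1 h call was lost without the KO 0 h array (limma adjusted p = 0.0591), the WT 0 h array (0.0639) or the WT 1 h array (0.0567). The KO minus WT difference was 0.01 (SE 0.10, limma adjusted p = 0.968). The dimmer probe set 1424486_a_at rose by 1.05, 1.89 and 0.53 units at 1, 2 and 4 h. The third, 1424487_x_at, near background, rose by 1.05 at 2 h, and its 0.96 at 1 h and 0.50 at 4 h did not pass (limma adjusted p = 0.0649 and 0.158). Every Txnrd1 probe set carries a suffix of the array design for probes that can match several transcripts. So do the Cyba probe set and the brightest Sod2 probe set.

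Of the NRF2 regulators none of 10 tested passed for genotype, where 13.5% of all genes passed, and some passed at each LPS time. On its brightest probe set Nfe2l2 itself read 10.10, 10.72, 10.33 and 10.10 on KO arrays and 10.18, 10.69, 9.56 and 10.18 on WT arrays. It passed in no comparison there. Its other, dim probe set read 2.85, 4.23, 3.81 and 3.49 on KO arrays and 3.75, 5.58, 4.84 and 3.46 on WT arrays. That probe set was highest at 1 h in both genotypes, and lower on the KO array at all times but 4 h. The KO 0 h value lay below that array's background of 2.96, and no test of this probe set is given. Keap1 read 5.70, 5.21, 4.26 and 7.04 on KO arrays, against 5.66, 4.79, 4.44 and 7.57 on WT arrays. It was lowest at 2 h and highest at 4 h in both genotypes, by -1.33 units (SE 0.22, adjusted p = 0.00417) and 1.62 units (SE 0.22, adjusted p = 0.00145) from 0 h in limma. At 1 h 2 regulators passed as higher and 0 as lower, at 2 h 4 and 4, and at 4 h 4 and 3, where 10.5%, 41.8% and 43.8% of all genes passed. Maff, a small MAF partner of NRF2, rose by 4.26, 4.24 and 2.09 units at 1, 2 and 4 h. Sqstm1, the p62 adaptor that can bind KEAP1, rose by 1.35 units at 1 h and 1.23 at 2 h. On its other probe set these were 2.38 and 1.11, and the 2 h call was lost (limma adjusted p = 0.0522). Bach1, a repressor at the same sites as NRF2, changed by -1.05 units at 2 h and -1.73 at 4 h, and Mafk rose by 1.06 at 4 h.

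Other NRF2 target antioxidant genes were called in both directions between genotypes. Of 20 tested, 4 passed as higher and 3 as lower in KO, where 13.5% of all genes passed, and the median difference was 0.04, against -0.04 over all genes. With cyclic loess 5 passed as higher and 1 as lower. Hmox1, the haem-degrading oxygenase, read 11.48, 11.53, 11.39 and 11.21 on KO arrays, against 11.01, 10.87, 10.20 and 9.75 on WT arrays. Every KO array was above every WT array, with a difference of 0.94 units (SE 0.17, limma adjusted p = 0.0203), and its LPS change at 4 h was -0.76 (SE 0.24, limma adjusted p = 0.0461). The genotype call was lost without either 2 h array (0.86, limma adjusted p = 0.0807) or either 4 h array (0.77, 0.0558), and the LPS call with either other scaling and without 6 of the 8 arrays in turn (highest limma adjusted p 0.292, without the WT 0 h array). Me1, malic enzyme, which makes NADPH, was 2.42 units higher in KO (SE 0.17, limma adjusted p = 0.000780). Slc7a11, the cystine importer that feeds glutathione synthesis, was 0.92 units higher in KO (SE 0.17, limma adjusted p = 0.0194; 0.0534 without either 1 h array), while the glutathione transferase Gstm1 was lower, by -0.57 (SE 0.07, limma adjusted p = 0.00623). Gclc, the catalytic partner of GCLM, read 6.26, 6.22, 5.95 and 5.13 on KO arrays and 6.51, 6.40, 5.25 and 4.78 on WT arrays. Its genotype difference of 0.15 did not pass (SE 0.17, limma adjusted p = 0.569), and KO was the lower array at 0 and 1 h and the higher at 2 and 4 h.

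With LPS these targets were called in both directions at 2 and 4 h. At 1 h 2 passed as higher and 0 as lower, at 2 h 3 and 9, and at 4 h 2 and 10, where 10.5%, 41.8% and 43.8% of all genes passed. The median at 4 h was -0.65, against -0.12 over all genes. Slc7a11 rose by 1.64, 4.27 and 4.51 units at 1, 2 and 4 h, and Srxn1, which repairs peroxiredoxins, rose by 1.21 at 1 h. The 1 h calls were lost without the KO 1 h array (limma adjusted p = 0.0510 for Slc7a11 and 0.0812 for Srxn1) or the WT 1 h array (0.0558 and 0.124), and that of Srxn1 without the KO 0 h array (0.0994). Gclc was lower by -0.78 units at 2 h and -1.43 at 4 h. Its 2 h call was lost with either other scaling and without 5 of the 8 arrays in turn (highest limma adjusted p 0.252, without the WT 0 h array), and on its other probe set it was -0.38 (0.0504). Osgin1 fell by 1.26 at 2 h, and the carbonyl reductase Cbr1 and the pentose phosphate enzyme Taldo1 fell by 2.08 and 1.18 at 4 h. At 4 h Cbr1 read 3.11 on the KO array and 2.94 on the WT array, below their background of 3.17 and 3.02. The efflux pump Abcc1 rose by 1.23 at 2 h.

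**Figure D5:**
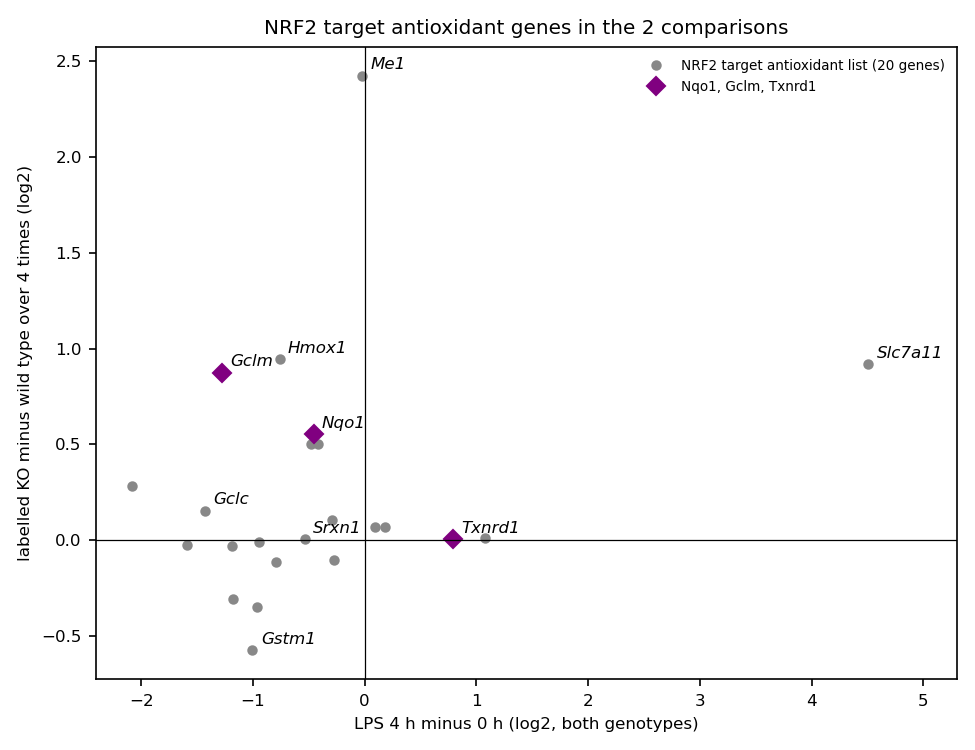
Genotype difference over 4 times (vertical axis, KO minus WT, log2) against the LPS change at 4 h (horizontal axis, log2) for 20 NRF2 target antioxidant genes in grey and for Nqo1, Gclm and Txnrd1 in purple. Gclm, Nqo1 and Hmox1 lie at the upper left, Slc7a11 at the far right (4.51) and Me1 at the top (2.42).

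Genes that remove superoxide and peroxide gave 1 higher and 3 lower in KO of 16 tested, where 13.5% of all genes passed. Gpx3, the secreted glutathione peroxidase, read 7.88, 7.68, 7.66 and 7.45 on KO arrays and 9.17, 8.96, 8.87 and 8.52 on WT arrays, a difference of -1.21 units (SE 0.08, limma adjusted p = 0.000612). The peroxiredoxin Prdx4 differed by -0.39 (SE 0.07, limma adjusted p = 0.0203), and the metallothionein Mt2 by 0.68 (SE 0.11, limma adjusted p = 0.0148). The Prdx4 call was lost without any 1 array (highest limma adjusted p 0.0826, without either 0 h array), and that of Mt2 without either 0 h array (0.0598) or 2 h array (0.0539). With LPS 1, 3 and 2 passed as higher and 2, 7 and 7 as lower at 1, 2 and 4 h, where 10.5%, 41.8% and 43.8% of all genes passed. With housekeeping centring 3 were higher and 5 lower at 4 h. Mt2 rose by 1.95, 2.60 and 2.78 units. Txnip, the inhibitor of thioredoxin, was lower at 1 h (-2.22 units) and at 2 h (-2.03). Gpx4, which reduces lipid peroxides, fell by 1.38 at 4 h. The other thioredoxin reductases went the other way from Txnrd1: the mitochondrial Txnrd2 was lower at 1 h (-0.72) and 2 h (-1.20), and Txnrd3 fell by 2.51 at 4 h. At 2 h Txnrd2 read 3.14 on the KO array and 3.03 on the WT array, below their background of 3.21 and 3.26. The size of its 2 h fall is therefore limited by the floor. The 1 h call of Txnrd2 was lost without any 1 of the 0 h or 1 h arrays (highest limma adjusted p 0.132) and with the mean of its probe sets (-0.32, 0.141).

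Of the genes around the reaction that Acod1 takes its substrate from, nearly all that passed after LPS were lower. Of 24 tested, none passed at 1 h, 9 passed as lower and 0 as higher at 2 h, and 13 as lower and 1 as higher at 4 h. Over all genes 10.5%, 41.8% and 43.8% passed, so the list's 37.5% at 2 h was below the share of all genes. Calls over all genes also leaned lower, with 1499 higher and 3740 lower at 2 h, and 1809 and 3689 at 4 h. With either other scaling 3 were higher and 12 lower at 4 h. Sdha is in both this list and the housekeeping list, so housekeeping centring is not independent of this list. It was the lowest of the 8 tested housekeeping genes at 2 h (-0.70 units), and 2 of those 8 passed as lower at 4 h. The median of the TCA cycle list at 4 h was -0.52, against -0.12 over all genes. Idh1, the cytosolic isocitrate dehydrogenase, read 11.96, 11.78, 11.41 and 9.79 on KO arrays, against 11.90, 11.77, 11.33 and 9.58 on WT arrays, and was lowest at 4 h in both genotypes. It fell by 2.24 units at 4 h (SE 0.11, limma adjusted p = 2.89e-05), Suclg2, a subunit of succinyl-CoA ligase, by 1.48 and Aco1, the cytosolic aconitase, by 1.13. At 2 h Idh2 fell by 2.15, Sdha, the catalytic subunit of the dehydrogenase that itaconate inhibits, by 0.70 and Idh3g by 0.69. Between genotypes 1 of 24 passed as higher and 2 as lower in KO, where 13.5% of all genes passed, and with housekeeping centring 0 were higher and 3 lower. These were Acly, the citrate lyase that supplies cytosolic acetyl-CoA, at 0.32 (SE 0.07, limma adjusted p = 0.0414), the dicarboxylate carrier Slc25a10 at -0.72 (SE 0.14, limma adjusted p = 0.0228) and Idh2 at -0.60 (SE 0.12, limma adjusted p = 0.0283). All 3 calls were lost without either 0 h, 2 h or 4 h array (highest limma adjusted p 0.153 for Acly, 0.0994 for Slc25a10 and 0.109 for Idh2), and that of Acly also without either 1 h array (0.0822), with the mean of its probe sets (0.16, 0.137) and with housekeeping centring (0.25, 0.0762). The 2 h call of Sdha was lost without the KO 2 h array (0.0569) or the WT 0 h array (0.0587).

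Patterns over the 8 arrays were compared by Pearson correlation of log2 values, as a description. All arrays share the LPS time course, so high values are common. The genes closest to Acod1 were Ptgs2 (0.998), Socs3 (0.997) and Zc3h12c (0.996), and those closest to Sod2 were Cxcl10 (0.998), Dusp16 (0.998) and Ccl2 (0.997). Txnrd1 was closest to Baz1a (0.984), Etf1 (0.979) and Vezf1 (0.978). Nqo1 was closest to Gbe1 (0.989), Pros1 (0.986) and Hgsnat (0.984), and Gclm to Ctsk (0.984), Mcm3 (0.972) and Sdf2l1 (0.969). Among the oxidase genes, Cybb was closest to Tma16 (0.990), Tex12 (0.990) and S100a8 (0.989), and Cyba to Trappc6b (0.988), Ptprv (0.980) and Rhbdd2 (0.979). Ncf4 was closest to Mlf2 (0.993), Trpv2 (0.991) and Tpm2 (0.990), and Ncf1 to Brpf1 (0.946), Chrnb4 (0.946) and Fam169a (0.942). Between members, the correlation was 0.963 for Acod1 and Sod2, 0.871 for Acod1 and Txnrd1, 0.845 for Cyba and Ncf4, 0.836 for Nqo1 and Gclm, and -0.684 for Nqo1 and Ncf4.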

How the data were processed

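The deposited table holds log2 values of 45101 probe sets on 8 arrays. The authors made them with RMA, per the submitters' processing notes. RMA corrects background, quantile-normalises the arrays and summarises probes on the log2 scale, so a change in total mRNA would not be seen. The RMA version is not given in the sources that were used here. Per the labels' protocols, total RNA came from Trizol and the biotinylated cRNA from a NuGEN Ovation kit. Probe sets with 1 symbol in the platform annotation were used, and a gene was kept when 2 or more arrays reached the median of the table, 3.16. That left 12540 of 18193 genes, each on its probe set of highest mean.

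Genotypes (time as a block) and LPS times (genotype as a block) were compared in 1 limma 3.58.1 fit in R 4.3.3 with 3 residual degrees of freedom. A further fit with 2 asked whether the genotype difference changed after LPS. Benjamini-Hochberg adjustment ran over all genes, with a threshold of 0.05, and SE is limma's moderated standard error. A single time rests on 2 arrays, so its difference has no test. The number of arrays limits the precision. Fits of each probe set by itself were added after the data were seen. Background is the highest of 27 bacterial control probe sets on each array. Alternatives were cyclic loess, housekeeping centring, other filters, other probe set rules, limma's trend and robust settings, no time block and leaving out arrays. The housekeeping list includes Sdha, which fell with LPS and is also in the TCA cycle list. Centring on that list carries part of this fall into the values of all genes.

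The members, pathway lists and marker lists were chosen with earlier results of these data known. Genes named were the members, the 3 genes of smallest p per list and comparison among those past the threshold, direct partners (Rac2, Gclc, Nfe2l2, Keap1 and Hmox1), and the 3 genes most correlated with each member. A further gene of these lists is not reported here.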

Additional observations from a re-analysis of the deposited data

How the results depend on the processing

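Of 228 alternatives run on the 15 member results that passed, 197 kept direction and call, 31 kept direction but lost the call and 0 turned direction. For the 54 named list results, 717 of 828 alternatives kept the call, 111 lost it and 0 turned direction. The alternatives are not independent, so these counts overstate how often a result was checked. For genotype, leaving out the KO or the WT array of a time gives the same fit. Leaving out either 0 h array equals leaving out both. For LPS, leaving out an array of another LPS time cannot move the estimate. Other filters and the trend and robust settings cannot move it either. Results that did not pass turned sign as follows, and the cause was not tested. KO minus WT became 0.018 for Ncf1 with cyclic loess, -0.054 for Txnrd1 with housekeeping centring, and -0.059 for Cybb, 0.028 for Sod2 and -0.045 for Txnrd1 with the mean of probe sets. Leaving out 1 array gave -0.13 to 0.088 for Ncf1 and -0.083 to 0.066 for Txnrd1. At 1 h of LPS, loess gave 0.054 for Ncf4, 0.069 for Nqo1 and 0.052 for Gclm, and housekeeping centring gave 0.075 for Ncf4, 0.016 for Nqo1 and 0.038 for Gclm. Leaving out 1 array gave -0.11 to 0.073 for Ncf4 and -0.32 to 0.21 for Gclm at 1 h. At 2 h Nqo1 became 0.10 with loess. At 4 h Ncf4 became 0.0058 with housekeeping centring and Ncf1 0.12 with the mean of probe sets. The changed genotype difference became -0.0088 for Cybb and -0.054 for Txnrd1 with housekeeping centring, -0.029 for Txnrd1 with the mean of probe sets, and -0.13 to 0.091 for Txnrd1 and -0.012 to 0.15 for Nqo1 without 1 array. Dropping the multi-transcript probe sets left no value for Cyba or Txnrd1.

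Counts moved too. For genotype, 597 genes and 1 member passed without both 0 h arrays and 150 genes and 0 members without the time block, against 1690 and 3, and leaving out 1 array gave 597 to 1237 genes and 1 to 3 members. For LPS, leaving out 1 array gave 454 to 1086 genes at 1 h, 3141 to 5248 at 2 h, and 3 to 6 members at 4 h. At 2 h 5 members passed with the mean of probe sets and 5 with trend and robust settings. The changed difference gave 15 genes and 1 member with trend and robust settings, and 0 to 6 genes without 1 array. It could not be fitted without a 0 h array. Scaling moved the split of calls: higher and lower were 596 and 1094 for genotype, against 722 and 823 with loess and 507 and 1742 with housekeeping centring. At 1 h of LPS they were 483 and 830, against 545 and 542, and 543 and 513. At 2 h they were 1499 and 3740, against 1878 and 2865, and 2001 and 2977. At 4 h they were 1809 and 3689, against 2423 and 2892 with housekeeping centring, which moved the median of all genes to 0.03. Over both other scalings the list medians at 2 and 4 h kept their sign, except the NRF2 regulators at 2 h (0.063 with loess and 0.074 with housekeeping centring, against -0.041). Housekeeping centring turned the genotype medians of the NRF2 targets (-0.020, against 0.041), the TCA cycle neighbours (-0.051, against 0.011) and the NRF2 regulators (-0.044, against 0.017). The labels give no replicate numbers, so the arrays were paired by time alone, as a block in the genotype comparison.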

Other observations

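Some partners of the members were low at 2 h of LPS and back up at 4 h, a shape seen after the values were known. Idh2, the mitochondrial isocitrate dehydrogenase, read 6.53, 6.34, 4.20 and 6.96 on KO arrays at 0, 1, 2 and 4 h, against 7.15, 6.63, 5.18 and 7.46 on WT arrays. Vav1, on a probe set that can match several transcripts, read 6.63, 6.77, 4.34 and 6.69 on KO arrays, against 6.94, 7.10, 5.80 and 7.32 on WT arrays. On its other probe set, Vav1 changed by -0.21 units at 2 h and did not pass (limma adjusted p = 0.372). In both genotypes the 2 h array of each of these was at least 1 log2 unit below the 1 h and the 4 h array. Over all 12540 genes, 43 met that rule at 2 h and 26 met its opposite, with 0 of the 9 members among them. At 1 h, set against 0 h and 2 h, 9 genes were low and 41 high by the same rule.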
